A study of Mus musculus with 2 samples.

Results

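The 42 genes described here are needed for DNA replication and cell division. They were taken from a fixed list, drawn up with earlier results of these data known, and are 42 of the 24785 genes in the tables. Of these, 18 act in S phase (the S members), 23 in G2 and mitosis (the G2/M members), and Stmn1, a microtubule-destabilising protein of proliferating cells, was kept outside both groups. All 42 were listed in both tables. CD45+ cells, the leukocytes, were sorted from the lungs of adult wild-type C57BL/6N mice and profiled on the BD Rhapsody platform by whole-transcriptome single-cell RNA-seq, which counts each captured transcript by its unique molecular identifier (UMI). The BLM library came from lungs 15 days after intratracheal bleomycin, an antitumour drug that damages the airway lining and is used to model pulmonary fibrosis, and the naive library from untreated lungs. No allele was altered in either group. Each library was a pool of equal cell numbers from 3 mice, cells could not be assigned to a mouse, and there was 1 library per group, so bleomycin and library cannot be told apart and no test between groups was possible.

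A cell that leaves rest passes a G1 checkpoint at which cyclin D and cyclin E kinases inactivate RB, and E2F transcription factors then switch on the genes of DNA synthesis. The MCM2-7 helicase is loaded on origins with the help of Cdc6 and activated with Cdc45 and the GINS complex, Pcna clamps the polymerase to DNA, and Tyms, Rrm1, Rrm2, Tk1 and Dut supply or guard the nucleotide pool. Before mitosis a second wave of genes is switched on by the MuvB complex with B-MYB and FOXM1, after the DREAM complex that represses these genes at rest has come apart: cyclins A and B with Cdk1, the kinases Plk1, Aurka and Aurkb, the checkpoint proteins Bub1 and Bub1b, centromere proteins, spindle kinesins, and Ube2c and Cdc20, the ubiquitin-conjugating enzyme and the activator of the anaphase-promoting complex, which ends mitosis. In the lung, alveolar macrophages keep their number largely by local division, while monocyte-derived macrophages and lymphocytes can expand after injury.

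The promoters of the 2 groups held different motifs. RefSeq promoter windows on GRCm38.p6, from 250 bases before to 50 after the start, were available for 34 of the 42 members and for 27025 genes in all. An E2F motif (TTTGGCGC, TTTCCCGC, TTTCGCGC or TTTGCCGC on either strand) lay in the windows of 7 of 15 S members (46.7%) and 1 of 19 G2/M members (5.26%), Cdk1, against 2.61% of all genes. The cell cycle homology region (CHR, TTTGAA on either strand) lay in 2 of 15 S members (13.3%), 14 of 19 G2/M members (73.7%) and 20.2% of all genes. The CCAAT box (either strand) lay in 11 of 15, 17 of 19 and 41.1%, and CHR and CCAAT together in 2 of 15, 14 of 19 and 7.97%. In windows that begin 150 bases before the start, a CHR lay in 12.8% of all genes. CHR and CCAAT together then lay in 1 of 15 S members, 14 of 19 G2/M members and 3.80% of all genes. Matches of the E2F letters can overlap each other, and a letter match does not show that a factor binds. The 150 bases before the start are given for 3 G2/M members with a CHR and for 3 S members with an E2F motif, 5′ to 3′ on the gene's strand, with E2F, CHR and CCAAT matches in capitals.

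Cdk1, chr10:69352913-69353062, minus strand: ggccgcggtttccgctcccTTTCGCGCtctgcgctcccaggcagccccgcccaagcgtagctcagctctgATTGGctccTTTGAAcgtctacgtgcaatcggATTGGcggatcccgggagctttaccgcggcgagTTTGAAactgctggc
Top2a, chr11:99024190-99024339, minus strand: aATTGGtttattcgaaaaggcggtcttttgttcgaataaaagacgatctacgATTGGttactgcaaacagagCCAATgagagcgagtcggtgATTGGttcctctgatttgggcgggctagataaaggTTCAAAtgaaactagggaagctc
Cdc20, chr4:118437344-118437493, minus strand: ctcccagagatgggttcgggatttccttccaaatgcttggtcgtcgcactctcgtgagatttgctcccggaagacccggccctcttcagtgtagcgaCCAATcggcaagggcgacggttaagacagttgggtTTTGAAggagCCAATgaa
Mcm6, chr1:128359706-128359855, minus strand: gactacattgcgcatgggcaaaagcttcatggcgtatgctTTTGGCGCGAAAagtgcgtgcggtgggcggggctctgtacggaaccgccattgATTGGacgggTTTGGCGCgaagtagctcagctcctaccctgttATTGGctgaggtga
Mcm5, chr8:75109359-75109508, plus strand: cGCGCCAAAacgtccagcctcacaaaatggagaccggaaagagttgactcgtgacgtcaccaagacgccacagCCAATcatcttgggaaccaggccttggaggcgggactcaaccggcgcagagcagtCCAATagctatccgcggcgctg
Cdc6, chr11:98908001-98908150, plus strand: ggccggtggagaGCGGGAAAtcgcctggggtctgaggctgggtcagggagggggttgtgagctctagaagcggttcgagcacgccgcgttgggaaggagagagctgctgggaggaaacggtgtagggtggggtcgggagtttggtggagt

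In Cdk1 the CHR matches and CCAAT boxes alternate, and an E2F motif stands further upstream. Top2a holds 4 CCAAT boxes and 1 CHR closer to the start than any of them, and Cdc20 holds 1 CHR between a pair of CCAAT boxes. Mcm6 has 3 E2F matches, of which the upstream pair overlaps on opposite strands. Mcm5 has 1 at the far end of the window and Cdc6 has 1 with no CCAAT box beside it.

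The BLM library gave 4526 cells that passed the filters (200 genes or more, mitochondrial UMIs of 15% or less), with a median of 2437 UMIs and 1199 genes per cell. The naive library gave 3925 cells, with medians of 2759 and 1364. Of the cell index numbers, 22 occurred in both libraries. Cells were clustered without the cycle genes, and clusters were named by markers, so that each name below means cells like that type. All fixed markers of the classes used were detected in both libraries, except for plasmacytoid dendritic cells, a subset with 1 BLM cell and 2 of 5 markers detected; for T cells the summed level of the 8 markers was 4013.81 CPM (UMIs of the gene or list per 1000000 UMIs of the same cells) inside the BLM class and 64.4 CPM outside it. The classes held, in BLM and naive, 532 and 650 alveolar macrophages, 537 and 137 interstitial or recruited macrophages, 847 and 700 T cells, 147 and 274 NK cells, 646 and 828 B cells, and 232 and 235 dendritic cells. Median UMIs per cell were 12634.5 and 10123.5 in alveolar macrophages, 9702 and 5752 in interstitial or recruited macrophages, 2468 and 2543.5 in T cells and 1665.5 and 1959.5 in B cells, so the macrophages were read several times more deeply than the lymphocytes. One cluster of 67 BLM and 33 naive cells was led by cycle genes in spite of this, and each of its cells was given to a class by its own markers.

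Most T cells held either few or many of the G2/M members. In BLM T cells, 33 cells had UMIs of 8 or more of the 23 G2/M members, and 4 cells had 5 to 7; in naive T cells the numbers were 17 and 1. Neutrophils, which do not divide after they leave the marrow, served as a background: no neutrophil reached 3 G2/M members in either library. Their medians were only 1330.5 UMIs in BLM and 1580 in naive. They therefore cannot give the background for the more deeply read macrophages and dendritic cells (medians of 7256.5 and 6546 UMIs in the latter). A cell with 8 or more genes of either group is called cycle-positive here, G2/M where 8 or more G2/M members were seen and S otherwise. The limit of 8 was chosen after seeing the distribution of the G2/M members. The S members had no such gap in alveolar macrophages, in which 44 BLM cells had 5 to 7 S members and 44 had 8 or more, against 39 and 53 naive cells. A limit of 3 genes also took in many deeply read macrophages with scattered UMIs: at 3 genes 267 of 532 BLM and 288 of 650 naive alveolar macrophages were called. The call rests on transcripts, with no measure of DNA content or of label uptake.

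**Figure D1:**
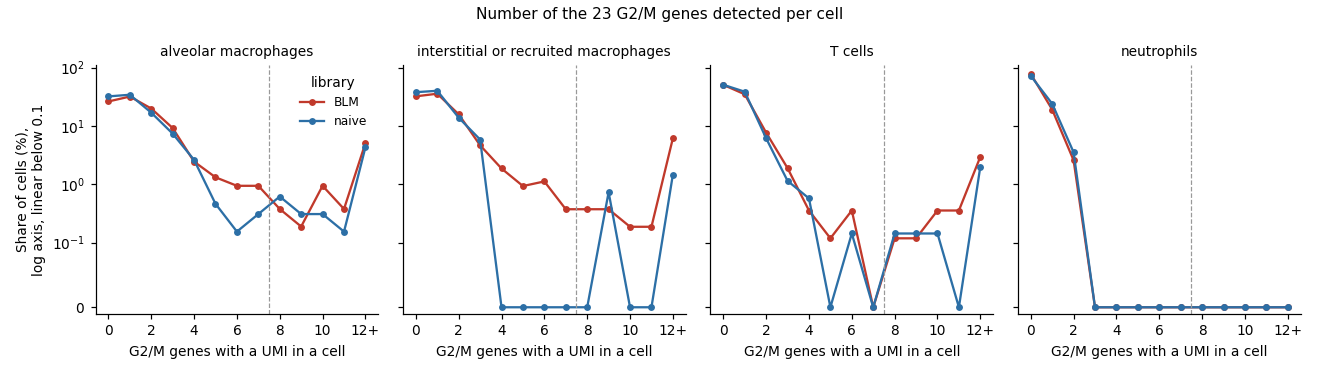
Share of the cells of a class (percent, vertical axis, log scale that turns linear near 0) by the number of distinct G2/M members seen in the cell (horizontal axis, with 12 or more as the last point) in 3 classes and in neutrophils, for BLM and naive; cells to the right of the dashed line have 8 or more genes. Neutrophils end below 3 genes in both libraries, whereas the other classes rise again to the right of the line.

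Cycle-positive cells made up 211 of 4526 cells (4.66%, 4.07 to 5.32%) in BLM and 149 of 3925 cells (3.796%, 3.22 to 4.44%) in naive, a log2 ratio of shares of 0.30 (0.00016 to 0.59). Bracketed ranges are 95% intervals, exact for shares and levels, and cover counting error only. The order of the classes was alike in both libraries at its lower end. Neutrophils had no cycle-positive cell, 0 of 1008 and 0 of 453 in the BLM and naive libraries, and a floor of 3 counts allows shares of up to 0.298 and 0.662%, and B and NK cells stood at about 1 to 2% in each. In naive lungs dendritic cells had the highest share, 38 of 235 cells (16.2%, 11.7 to 21.5%), followed by alveolar macrophages, 63 of 650 cells (9.69%, 7.53 to 12.2%), and the intervals of these neighbours overlap. In BLM lungs dendritic cells had 28 of 232 cells (12.1%, 8.17 to 16.97%) and alveolar macrophages 50 of 532 cells (9.399%, 7.06 to 12.2%), and with interstitial or recruited macrophages between them their intervals overlap.

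Among the 6 classes compared, interstitial or recruited macrophages and T cells had a higher share in BLM, with intervals of the ratio above 0. Interstitial or recruited macrophages had 57 of 537 cells (10.6%, 8.14 to 13.5%) in BLM against 4 of 137 cells (2.92%, 0.801 to 7.31%) in naive, a log2 ratio of 1.86 (0.42 to 3.299). T cells had 44 of 847 cells (5.19%, 3.7996 to 6.91%) against 21 of 700 cells (3%, 1.87 to 4.55%), 0.79 (0.056 to 1.53). With classes given by the marker score of each cell the T cell interval spanned 0 (0.69, -0.11 to 1.495). The other classes had intervals of the ratio that span 0: -0.044 (-0.55 to 0.46) in alveolar macrophages, -0.42 (-1.08 to 0.23) in dendritic cells, 0.15 (-0.91 to 1.21) in B cells and -0.69 (-2.98 to 1.604) in NK cells, in which only 2 BLM and 6 naive cells were called. Among all cycle-positive cells, interstitial or recruited macrophages were 27.0% of 211 in BLM and 2.68% of 149 in naive, alveolar macrophages 23.7 and 42.3%, T cells 20.9 and 14.1%, dendritic cells 13.3 and 25.5%, and B cells 6.16 and 10.1%. With every cell thinned to 1000 UMIs and a limit of 4 genes, the T cell counts were 42 of 834 and 17 of 695, log2 ratio 1.04 (0.24 to 1.84). Those of interstitial or recruited macrophages were 32 of 528 and 2 of 137, 2.05 (0.011 to 4.097). With the limit of 3 genes the log2 ratios were 0.18 (0.0055 to 0.35) in alveolar macrophages, 0.68 (0.18 to 1.18) in interstitial or recruited macrophages and -0.059 (-0.42 to 0.30) in T cells. They were -0.50 (-1.46 to 0.46) in NK cells, -0.18 (-0.71 to 0.34) in B cells and -0.00057 (-0.38 to 0.38) in dendritic cells. At this limit 4 of 1008 BLM and 2 of 453 naive neutrophils were called, and the T cell ratio was not above 0.

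**Figure D2:**
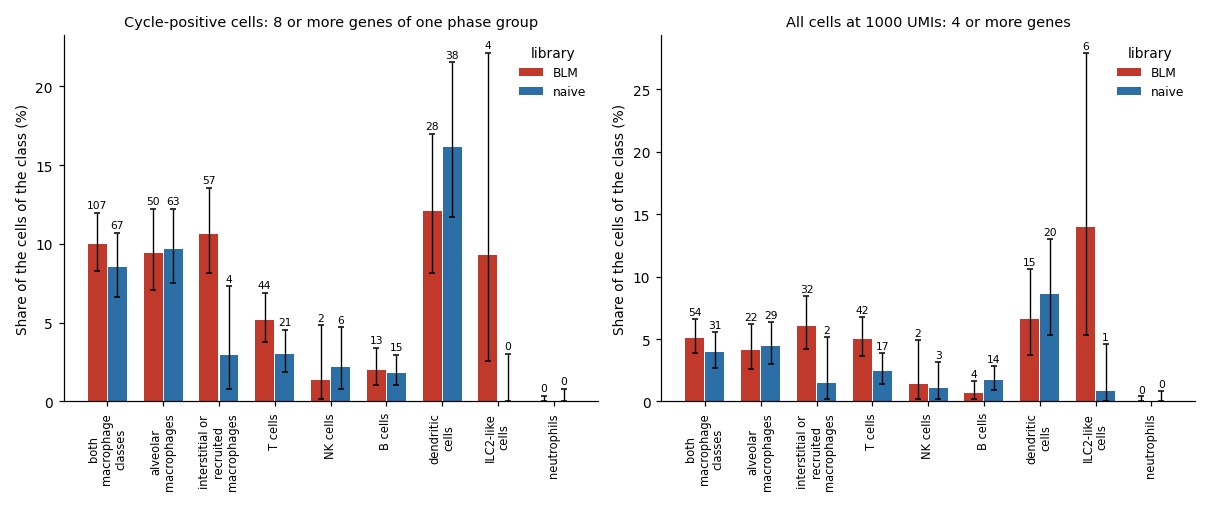
Share of cycle-positive cells (percent, vertical axis) in each class for BLM and naive, with exact 95% intervals for counting error and the number of cells called above each bar, by 8 or more genes (left) and by 4 or more genes in cells thinned to 1000 UMIs (right). Among the 6 classes compared, the left pairs of interstitial or recruited macrophages (10.6 and 2.92%) and T cells (5.19 and 3.0%) have BLM higher by the most, and neutrophils are at 0 in both.

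A cycle-positive macrophage can be given to either macrophage class. Of the 57 cycle-positive BLM interstitial or recruited macrophages, 24 came from the cluster led by cycle genes, as did 31 of 50 alveolar macrophages in BLM and 32 of 63 in naive. As 1 class, macrophages were cycle-positive in 107 of 1069 cells (10.01%, 8.28 to 11.97%) in BLM and 67 of 787 cells (8.51%, 6.66 to 10.7%) in naive, a log2 ratio of 0.23 (-0.19 to 0.65). With the cells of the cycle cluster placed by their 15 nearest cells, the log2 ratio of the share was 0.54 in alveolar macrophages and that of the summed member UMIs 0.43 in alveolar and 0.25 in interstitial or recruited macrophages, against -0.11 and 0.80 as placed here. The share ratio of interstitial or recruited macrophages ranged from 1.02 to 1.86 over the 6 alternatives for classes, filters and doublets. Its interval spanned 0 in 3 of them: by marker score (-0.16 to 3.86), by nearest cells (-0.2999 to 2.34) and without integration (-0.16 to 3.85). In the thinned cells the pooled counts were 54 of 1060 and 31 of 787.

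In alveolar macrophages, the resident phagocytes of the air space, the summed S members were nearly level (633 and 590.0 CPM, log2 0.10 (0.041 to 0.16)) and the summed G2/M members were lower in BLM (444 and 573 CPM, log2 -0.37 (-0.43 to -0.30)). Both groups summed together stood at -0.11, but at 0.50 with classes by marker score and 0.43 with the cycle cluster placed by nearest cells. The G2/M sum alone was not computed under those placements, so its direction holds for the classes used here. A member counts as higher or lower when its ratio is 2-fold or more among genes with at least 20 UMIs over both libraries; with 1 library per group this is a description. Brackets after a gene give its UMIs in BLM and naive, the log2 ratio of its CPM and, where a range follows, the interval. All 42 members were measured, 0 were higher and 5 lower, with a median log2 ratio of -0.18, beside 5.91% of all genes higher and 10.2% lower and a median of -0.21. The split of the cycle-positive cells depended on the call: it was 13 S and 37 G2/M in BLM and 26 S and 37 G2/M in naive with 8 genes, but 11 and 11 against 7 and 22 with 4 genes in cells thinned to 1000 UMIs.

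Of the replication genes, Pcna, the sliding clamp, stood at 136 CPM in BLM (972 UMIs) and 155 CPM in naive (1071 UMIs), a log2 ratio of -0.18 (-0.31 to -0.054). Mcm5, a helicase subunit, stood at 24.7 CPM in BLM (176 UMIs) and 19.5 CPM in naive (135 UMIs), a log2 ratio of 0.34 (0.0098 to 0.68). Rrm2, the regulated subunit of ribonucleotide reductase, and Tyms, thymidylate synthase, had small positive ratios: Rrm2 (259 and 200 UMIs, log2 0.33, 0.060 to 0.61) and Tyms (102 and 85 UMIs, log2 0.22, -0.21 to 0.65). The members with the highest ratios were Pclaf (760 and 486 UMIs, log2 0.60, 0.44 to 0.77), a Pcna-binding factor, Ccne2 (51 and 37 UMIs, log2 0.42), cyclin E2, and Cenpa (398 and 289 UMIs, log2 0.42), the centromeric histone; none reached 2-fold.

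Among G2/M members, the proliferation antigen Mki67 stood at 46.4 CPM in BLM (331 UMIs) and 56.9 CPM in naive (394 UMIs), a log2 ratio of -0.29 (-0.51 to -0.078). Top2a, which untangles sister chromatids, stood at 58.7 CPM in BLM (418 UMIs) and 74.9 CPM in naive (519 UMIs), a log2 ratio of -0.35 (-0.54 to -0.16). Cdk1, the mitotic kinase, hardly differed, with 180 and 175 UMIs, while its partner Ccnb1, cyclin B1, had 74 and 117 UMIs and a log2 ratio of -0.70 (-1.14 to -0.27). Stmn1 was also lower by less than 2-fold, with 836 and 1077 UMIs and a log2 ratio of -0.41 (-0.54 to -0.27). The 5 lower members were Kif23, Cenpf, Kif20a, Cdc20 and Cenpe. Kif23, a kinesin of the midzone where daughter cells part, stood at 11.4 CPM in BLM (81 UMIs) and 41.1 CPM in naive (285 UMIs), a log2 ratio of -1.86 (-2.23 to -1.495). Cenpf, a kinetochore protein, stood at 5.47 CPM in BLM (39 UMIs) and 19.6 CPM in naive (136 UMIs), a log2 ratio of -1.84 (-2.396 to -1.32), and Kif20a, another midzone kinesin, had 21 and 45 UMIs, log2 ratio -1.14. The directions of Kif23, Cenpf and Kif20a turned when the libraries were clustered without integration, which left 32 BLM cells in this class.

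In interstitial or recruited macrophages, which include monocyte-derived cells, members of both groups were higher in BLM. The summed S members were at 699 and 454 CPM, log2 0.62 (0.48 to 0.77), and the summed G2/M members at 743 and 374 CPM, log2 0.99 (0.83 to 1.15). All 42 were measured, 21 were higher and 0 lower, with a median log2 ratio of 1.01, beside 6.38% of all genes higher and 10.5% lower and a median of -0.09. With Kif20a, which had 0 naive UMIs, set at its bound, 20 were higher and the median was 0.91. UMIs of 1 cell are not independent: the 4 naive cycle-positive cells held 49.4% of the naive class's member UMIs, and 57 BLM cells held 78.7%. The naive class had 137 cells, so many naive values rest on few UMIs.

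The nucleotide genes Rrm2, Tyms, Rrm1 and Dut were among the 8 higher S members: Rrm2 (231 and 13 UMIs, log2 1.57, 0.77 to 2.51) and Tyms (112 and 6 UMIs, log2 1.65, 0.48 to 3.12). The others were Pclaf (723 and 23 UMIs, log2 2.398, 1.801 to 3.06), Gins2 (102 and 3 UMIs, log2 2.51, 0.92 to 4.81), a subunit of the helicase-activating GINS complex, Cdc45 and Ccne2. The clamp and the MCM helicase did not share this: Pcna stood at 151 CPM in BLM (866 UMIs) and 127 CPM in naive (122 UMIs), a log2 ratio of 0.25 (-0.024 to 0.54). Mcm5 stood at 29.2 and 29.2 CPM (167 and 28 UMIs), and Mcm3 had the lowest ratio of all 42 members, with 208 and 51 UMIs and a log2 ratio of -0.55 (-0.997 to -0.077).

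Of the G2/M members 13 of 23 were higher. Cdk1 stood at 43.8 CPM in BLM (251 UMIs) and 8.33 CPM in naive (8 UMIs), a log2 ratio of 2.39 (1.39 to 3.62), and Ccnb1 had 82 and 5 UMIs (1.46). The highest ratios were those of Hmmr, a spindle-assembly protein, with 101 and 1 UMIs and a log2 ratio of 4.08 (1.57 to 9.399), and Plk1, the polo-like kinase, with 55 and 1 UMIs and a log2 ratio of 3.205 (0.67 to 8.53). Kif20a was at least 1.84-fold higher (33 and 0 UMIs, against a floor of 3 counts over the naive class). Mki67 and Top2a, the most used labels of dividing cells, stayed under 2-fold, with Mki67 (461 and 59 UMIs, log2 0.39, -0.0040 to 0.81) and Top2a (644 and 65 UMIs, log2 0.73, 0.36 to 1.12), as did Stmn1 (853 and 83 UMIs, log2 0.78, 0.46 to 1.13). The lowest ratios after Mcm3 were Bub1b (37 and 9 UMIs, log2 -0.54, -1.61 to 0.70), a spindle checkpoint kinase, and Kif23 (95 and 22 UMIs, log2 -0.47, -1.15 to 0.27). The other higher members were Birc5, Ube2c, Ccna2, Ccnb2, Cdc20, Cenpe, Cenpf and Nusap1.

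**Figure D3:**
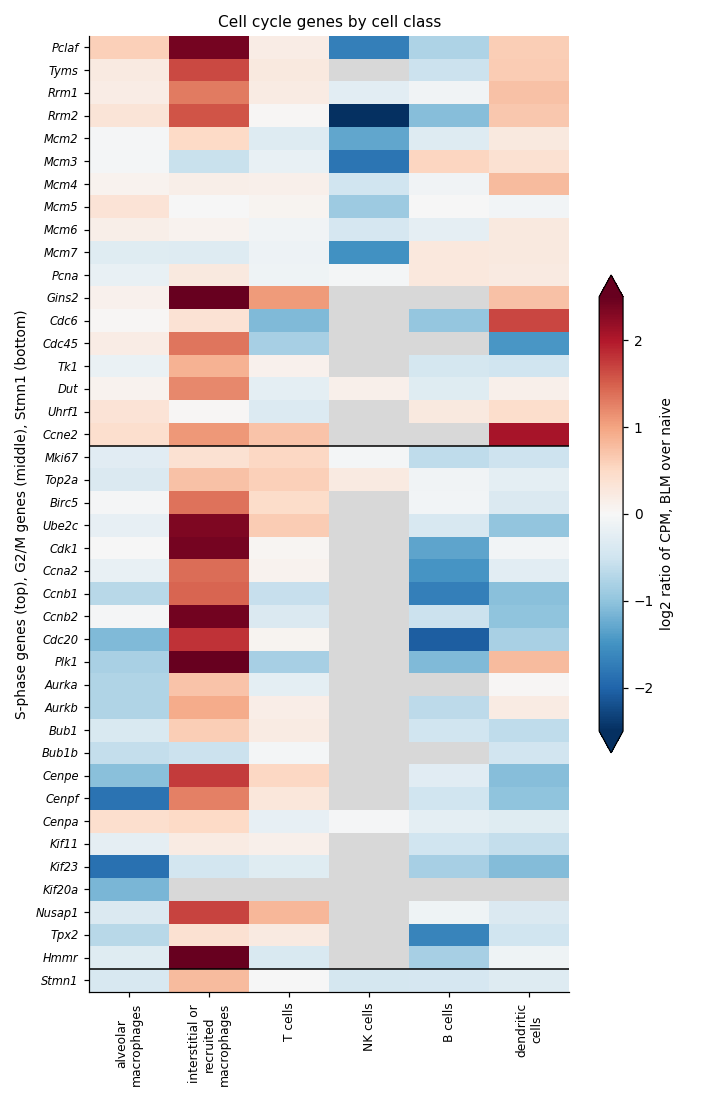
Log2 ratio of BLM over naive (colour) for each of the 42 members (rows) in each class (columns), from summed UMIs per class, with the colour scale ending at 2.5 in either direction; grey marks members under 20 UMIs over both libraries and Kif20a in interstitial or recruited macrophages (33 and 0 UMIs). Interstitial or recruited macrophages have 20 members at 2-fold or more beside Kif20a, where 6.38% of all genes were higher and 10.5% lower. Alveolar macrophages, NK, B and dendritic cells have more members 2-fold lower than higher. All genes lean the same way in alveolar macrophages, NK and B cells, and were nearly even in dendritic cells. Of all genes 5.91% were higher and 10.2% lower in alveolar macrophages, and 1.86 and 6.7% in NK cells. The shares were 1.25 and 5.12% in B cells and 5.89 and 6.38% in dendritic cells.

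In T cells the share of cycle-positive cells was higher in BLM, while most members differed little in summed level. The S members summed to 1086 and 1089 CPM, log2 -0.0033 (-0.085 to 0.079), and the G2/M members to 1104 and 946 CPM, log2 0.22 (0.14 to 0.31). Of 41 measured members 1 was higher and 1 lower, with a median log2 ratio of 0.063, beside 2.75% of all genes higher and 3.82% lower and a median of -0.081; Kif20a had too few UMIs. Of the 44 BLM cycle-positive T cells 11 were in S and 33 in G2/M, and of the 21 naive ones 4 and 17. They held 69.9 and 64.5% of the class's member UMIs.

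Mki67 stood at 121 CPM in BLM (293 UMIs) and 84.5 CPM in naive (172 UMIs), a log2 ratio of 0.52 (0.24 to 0.80). Top2a stood at 224 CPM in BLM (542 UMIs) and 147 CPM in naive (300 UMIs), a log2 ratio of 0.60 (0.40 to 0.81), both with intervals above 0. Cdk1 (75 and 61 UMIs, log2 ratio 0.047) and Ccnb1 (28 and 35 UMIs, -0.57) did not share this: their intervals, -0.46 to 0.56 and -1.34 to 0.19, span 0. The same holds for Pcna (505 and 458 UMIs, log2 -0.11, -0.30 to 0.076), Mcm5 (128 and 103 UMIs, log2 0.063, -0.32 to 0.45) and Rrm2 (129 and 106 UMIs, log2 0.033, -0.35 to 0.42). It holds too for Tyms (62 and 44 UMIs, log2 0.24, -0.34 to 0.84) and Stmn1 (460 and 387 UMIs, log2 -0.0015, -0.20 to 0.20). Gins2 was the 1 higher member, with 35 and 14 UMIs and a log2 ratio of 1.07 (0.14 to 2.08), followed by Nusap1 (127 and 60 UMIs, log2 0.83), a spindle microtubule protein, and Ccne2 (35 and 18 UMIs, log2 0.71). Cdc6 was the 1 lower member, with 20 and 36 UMIs and a log2 ratio of -1.099 (-1.97 to -0.27), and Cdc45 (8 and 12 UMIs, log2 -0.84) and Plk1 (12 and 18 UMIs, log2 -0.84) came next with few UMIs.

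Within T cells, the highest share of cycle-positive cells was in those with a UMI of Foxp3, the transcription factor of regulatory T cells. In BLM 18 of 92 cells (19.6%, 12.03 to 29.1%) with Foxp3 were cycle-positive, against 12 of 167 cells (7.19%, 3.77 to 12.2%) with Cd4 and neither Foxp3 nor Cd8 genes. They were 7 of 275 cells (2.55%, 1.03 to 5.17%) with Cd8 genes and 2 of 90 cells (2.22%, 0.2703 to 7.798%) with gamma delta receptor genes. In naive the shares were 3 of 26 cells (11.5%, 2.45 to 30.2%) with Foxp3, 5 of 130 cells (3.85%, 1.26 to 8.75%) with Cd4, 9 of 254 cells (3.54%, 1.63 to 6.62%) with Cd8 and 2 of 88 cells (2.27%, 0.276 to 7.97%) with gamma delta genes. The cells with none of these markers had 5 of 223 cells (2.24%, 0.732 to 5.15%) in BLM and 2 of 202 cells (0.9901%, 0.1201 to 3.53%) in naive. The BLM interval for Foxp3 cells lies above those of the Cd8 and gamma delta cells, and the difference between BLM and naive Foxp3 cells is within counting error, with a log2 ratio of 0.76 (-0.89 to 2.41). The T cells without Foxp3 had 26 of 755 cells (3.44%, 2.26 to 5.01%) in BLM and 18 of 674 cells (2.67%, 1.59 to 4.19%) in naive, a log2 ratio of 0.37 (-0.49 to 1.22). The interval for the T cell class therefore lies above 0 only with the Foxp3 cells in it. The summed S and G2/M members did not follow the shares, with log2 ratios of -0.16 (-0.22 to -0.087) in T cells without Foxp3 and -0.11 (-0.24 to 0.0296) in those with it. Cells with Foxp3 were 92 of 847 BLM and 26 of 700 naive T cells. A marker UMI is more likely to be seen in a deeply read cell, and cycle-positive T cells held more UMIs than the rest (median 6449 against 2400 in BLM); the part of depth in this order was not tested. Cells with Foxp3 had a median of 3009.5 UMIs in BLM and cells with Cd8 genes 2807.

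**Figure D4:**
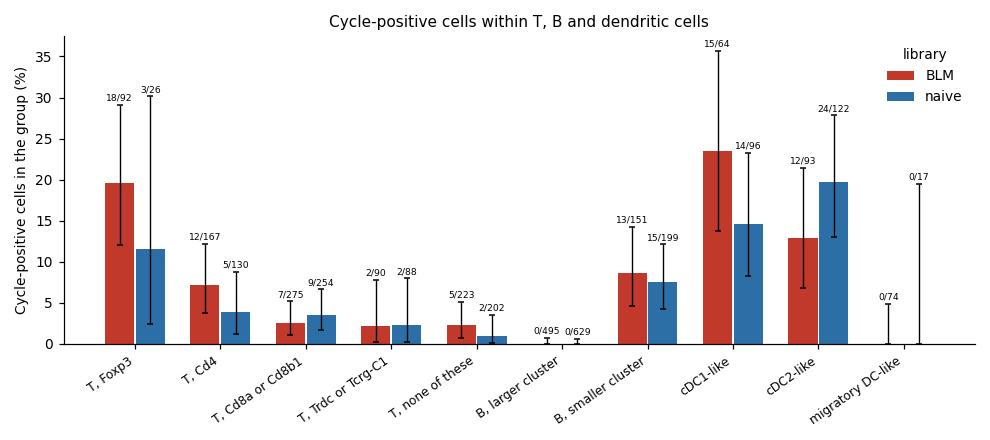
Share of cycle-positive cells (percent) in subgroups of T, B and dendritic cells for BLM and naive, with exact 95% intervals for counting error and the numbers of cells. Foxp3 cells lead among T cells (19.6 and 11.5%), cDC1 stand at 23.4 and 14.6% and cDC2 at 12.9 and 19.7%, and migratory dendritic cells and the larger B cell cluster are at 0.

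NK cells held few members: 15 of 42 reached 20 UMIs, of which 0 were higher and 5 lower in BLM, beside 1.86% of all genes higher and 6.7% lower. All 5 were S members: Rrm2 (2 and 23 UMIs, log2 -2.49, -5.62 to -0.47), Mcm3 (4 and 29 UMIs, log2 -1.83, -3.795 to -0.32), Pclaf (6 and 40 UMIs, log2 -1.71, -3.23 to -0.46), Mcm2 and Mcm7. Mcm5 (11 and 42 UMIs, log2 -0.90, -2.01 to 0.082) came close to 2-fold. The S members summed to 520.0 and 774 CPM, log2 -0.57 (-0.83 to -0.32) and the G2/M members to 302 and 330.5 CPM, log2 -0.13 (-0.49 to 0.22). Members near equality were Top2a (20 and 35 UMIs, log2 0.22, -0.65 to 1.06), Pcna (49 and 104 UMIs, log2 -0.054, -0.57 to 0.45), Mki67 (9 and 19 UMIs, log2 -0.046, -1.37 to 1.17), Dut (8 and 15 UMIs, log2 0.12) and Cenpa (41 and 85 UMIs, log2 -0.020). Stmn1 (39 and 108 UMIs, log2 -0.44) lay below 0 by less than 2-fold. Cdk1 (3 and 9 UMIs), Ccnb1 (0 and 4 UMIs) and Tyms (2 and 6 UMIs) had too few UMIs for a ratio.

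In B cells the shares of cycle-positive cells differed by less than counting error, and G2/M members were lower in BLM. The log2 ratio of all summed S and G2/M members was -0.27, but -0.071 by marker score, 0.019 without the highest Scrublet scores and -0.012 without integration. Of 36 measured members 0 were higher and 7 lower, with a median log2 ratio of -0.46, beside 1.25% of all genes higher and 5.12% lower and a median of -0.11. The S members summed to 712 and 771 CPM, log2 -0.11 (-0.23 to 0.000027) and the G2/M members to 607 and 816 CPM, log2 -0.43 (-0.55 to -0.31). The 13 BLM cycle-positive cells were 7 in S and 6 in G2/M, whereas the 15 naive ones were 1 in S and 14 in G2/M. In cells thinned to 1000 UMIs with a limit of 4 genes, the split was 1 and 3 in BLM against 1 and 13 in naive. The lower members, most of them mitotic regulators, were Cdc20 (5 and 31 UMIs, log2 -2.07, -3.79 to -0.69), the activator of the anaphase-promoting complex, Ccnb1 (7 and 34 UMIs, log2 -1.71, -3.13 to -0.52), Tpx2 (6 and 28 UMIs, log2 -1.66, -3.22 to -0.36), a spindle assembly factor, and Cdk1 (14 and 52 UMIs, log2 -1.33, -2.29 to -0.45). Rrm2 (19 and 59 UMIs, log2 -1.07, -1.898 to -0.30), Ccna2 and Plk1 complete the 7.

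The replication genes did not follow: Mcm3 (87 and 89 UMIs, log2 0.53, 0.090 to 0.98), Pcna (212 and 260 UMIs, log2 0.27) and Mcm7 (77 and 95 UMIs, log2 0.26) had the highest ratios and Mcm5 (74 and 111 UMIs, log2 -0.019) was level. Mki67 stood at 47.3 CPM in BLM (67 UMIs) and 73.02 CPM in naive (153 UMIs), a log2 ratio of -0.63 (-1.06 to -0.20). Top2a (172 and 271 UMIs, log2 -0.090), Tyms (7 and 15 UMIs, log2 -0.53) and Stmn1 (82 and 162 UMIs, log2 -0.42) had ratios below 0. Every cycle-positive B cell lay in the smaller of the pair of B cell clusters, with 13 of 151 cells (8.61%, 4.66 to 14.3%) in BLM and 15 of 199 cells (7.54%, 4.28 to 12.1%) in naive, against 0 of 495 and 0 of 629 in the larger one. The B class held 585 and 753 cells when the libraries were not integrated, of which 1 and 2 were cycle-positive, and 506 and 641 cells when the highest Scrublet scores were left out. The directions of Cdc20 and Ccnb1 turned under both.

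Genes of germinal centre B cells, the dividing B cells of an immune response, differed between the libraries. S1pr2 (4 and 41 UMIs, log2 -2.79, -4.73 to -1.33) and Rgs13 (3 and 30 UMIs, log2 -2.76, -5.11 to -1.07), which encode regulators of cell position in the germinal centre, were lower in BLM. Fas (5 and 17 UMIs, log2 -1.1999, -2.99 to 0.30), a death receptor, was lower with an interval that spans 0. In naive B cells genes of this list stood far higher in cycle-positive cells than in the rest: S1pr2 at 173 against 5.22 CPM, Rgs13 at 106 against 5.74 CPM and Bcl6, the master repressor of the germinal centre, at 117 against 35.5 CPM. In BLM B cells Bcl6 had 0 UMIs in the 13 cycle-positive cells and 63 in the rest.

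In dendritic cells the summed S and G2/M members went opposite ways. The S members summed to 1065 and 798 CPM, log2 0.42 (0.31 to 0.52), and the G2/M members to 882 and 1224 CPM, log2 -0.47 (-0.57 to -0.38). The cycle-positive cells did not show this for S, with 9 S and 19 G2/M cells in BLM and 11 and 27 in naive. The log2 ratio of both groups summed was -0.054, and -0.58 when the cells of the cycle cluster took the class of their nearest cells. Of 41 measured members 2 were higher and 5 lower, with a median log2 ratio of -0.11, beside 5.89% of all genes higher and 6.38% lower and a median of 0.030; Kif20a had too few UMIs. The higher members, no larger a share than among all genes, were Ccne2 (27 and 6 UMIs, log2 2.06, 0.76 to 3.63) and Cdc6 (24 and 7 UMIs, log2 1.67, 0.41 to 3.13), the origin-loading factor. Mcm4 (150 and 80 UMIs, log2 0.80, 0.40 to 1.21) came next. The lower ones were Cdc45 (9 and 23 UMIs, log2 -1.46, -2.76 to -0.29), Kif23 (45 and 89 UMIs, log2 -1.09, -1.64 to -0.56), Cenpe (40 and 78 UMIs, log2 -1.07, -1.66 to -0.50), a kinetochore motor, Ccnb1 (12 and 23 UMIs, log2 -1.04, -2.19 to 0.021) and Cenpf (29 and 54 UMIs, log2 -1.003). Ccne2 lost its ratio when the cells of the cycle cluster took the class of their nearest cells.

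Mki67 stood at 129.8 CPM in BLM (226 UMIs) and 186 CPM in naive (301 UMIs), a log2 ratio of -0.52 (-0.78 to -0.27), and Top2a had 302 and 333 UMIs and a log2 ratio of -0.25 (-0.48 to -0.018). Cdk1 (79 and 77 UMIs, log2 -0.069) and Mcm5 (75 and 73 UMIs, log2 -0.067) were level. Rrm2 (122 and 71 UMIs, log2 0.67, 0.24 to 1.12), Tyms (55 and 33 UMIs, log2 0.63, -0.018 to 1.299) and Pcna (269 and 215 UMIs, log2 0.22, -0.047 to 0.48) lay above 0, and Stmn1 (358 and 414 UMIs, log2 -0.32, -0.52 to -0.11) below. The cycle-positive cells lay among conventional dendritic cells, except for 1 BLM cell placed with plasmacytoid dendritic cells. Among cDC1, the cross-presenting subset, 15 of 64 cells (23.4%, 13.8 to 35.7%) were cycle-positive in BLM and 14 of 96 cells (14.6%, 8.21 to 23.3%) in naive. Among cDC2 they were 12 of 93 cells (12.9%, 6.85 to 21.5%) and 24 of 122 cells (19.7%, 13.03 to 27.8%), with overlapping intervals in both subsets. The summed S and G2/M members had log2 ratios of 0.029 (-0.0802 to 0.14) in cDC1 and 0.28 (0.18 to 0.37) in cDC2, so in cDC2 the share and the summed level went opposite ways. Migratory dendritic cells, which leave for the lymph node, had 0 of 74 in BLM and 0 of 17 in naive. Of 28 BLM cycle-positive cells 7 came from the cluster led by cycle genes, and the markers of alveolar macrophages summed to 3659 CPM in these 28 cells against 1518 CPM in the other dendritic cells; their part in the result was not tested.

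Group 2 innate lymphoid cells (ILC2), lymphocytes that secrete type 2 cytokines and lack antigen receptors, were few and had the largest log2 ratios of the summed members among the classes given here. There were 43 in BLM and 120 in naive, of which 4 of 43 cells (9.302%, 2.59 to 22.1%) and 0 of 120 cells were cycle-positive, and for the latter a floor of 3 counts allows a share of up to 2.5%. The S members summed to 1363 and 304 CPM, log2 2.17 (1.804 to 2.54) and the G2/M members to 1798 and 169.5 CPM, log2 3.41 (2.96 to 3.88). Pclaf had 55 UMIs in BLM and 0 in naive, at least 30.1-fold higher, Mki67 had 47 and 0, at least 25.7-fold higher, Top2a (69 and 1 UMIs, log2 6.82, 4.298 to 12.15) and Stmn1 (66 and 3 UMIs, log2 5.18, 3.57 to 7.49). These UMIs come from a handful of cells.

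Most UMIs of the members lay in cycle-positive cells. Over all cells, 211 BLM cells held 70.4% of the S and G2/M member UMIs and 149 naive cells held 63.4%. With cycle-positive cells left out, the log2 ratios of the summed S and G2/M members were -0.068 in alveolar macrophages, -0.29 in interstitial or recruited macrophages, -0.078 in T cells, -0.15 in NK cells, -0.018 in B cells and -0.049 in dendritic cells. In interstitial or recruited macrophages the ratio went from 0.80 with these cells to below 0 without them. The cells left out were called by these same genes, and held 78.7% of this class's member UMIs in BLM and 49.4% in naive. A fall in the ratio thus follows from the call, and these values are a description.

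The members differed in how far they were confined to cycle-positive cells. The median share of a G2/M member's UMIs in these cells was 85.7% in BLM and 84.4% in naive, against 69.9 and 58.0% for the S members. In BLM, given first, the share was highest for Ccna2 (95.03 and 93.3%), cyclin A2, Bub1 (94.7 and 92.6%), Rrm2 (93.004 and 87.1%), Pclaf (92.3 and 92.4%) and Nusap1 (92.4 and 93.5%). The lowest 5 in BLM were Cenpa (29.1 and 22.3%), Pcna (40.3 and 29.6%), Mcm4 (41.6 and 29.2%), Kif23 (44.2 and 50.7%) and Bub1b (49.03 and 38.3%). In naive Mcm2 (39.4%), Mcm6 (42.2%), Mcm3 (43.9%) and Gins2 (47.4%) also lay below Kif23. Some of these genes had UMIs in neutrophils: Kif23 in 13.7% of BLM and 18.5% of naive neutrophils, Cenpa in 5.26 and 6.18%, and Pcna in 4.56 and 4.86%, against 0.298 and 0.442% for Top2a. For each gene's share the cells were called again without that gene. Because the call still used the other members, the shares are a description.

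**Figure D5:**
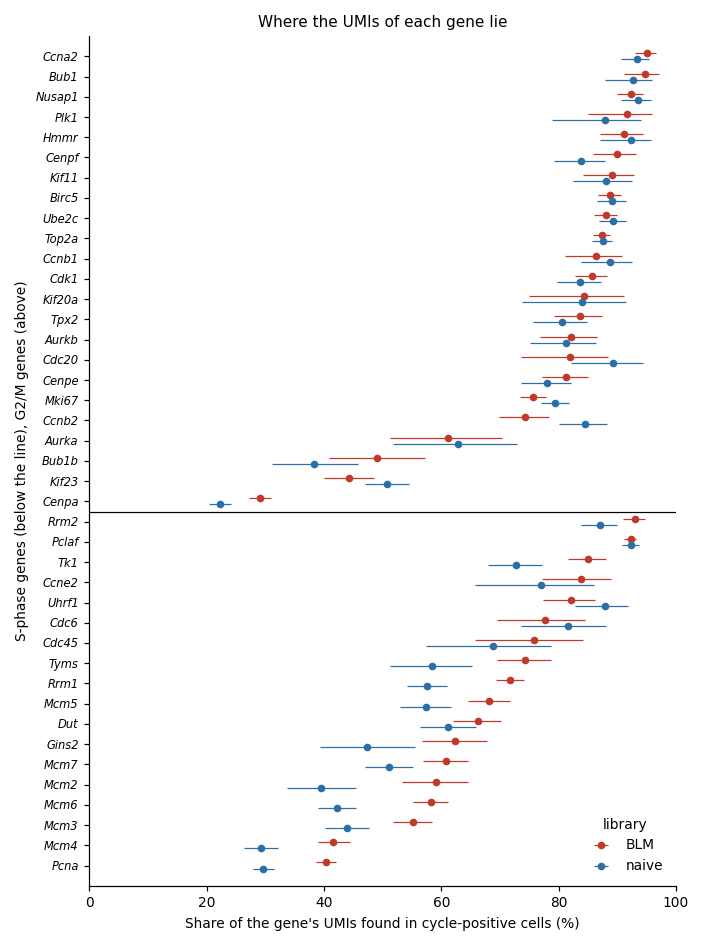
Share of each member's UMIs that lies in cells called cycle-positive without that member (percent, horizontal axis) for BLM and naive, S and G2/M members apart, with exact 95% intervals. Most G2/M members lie above 80%, while Cenpa (29.1 and 22.3%) lies lowest in both libraries and Pcna, Mcm4 and Bub1b lie below 50%.

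Genes of the cycle that the call did not use were higher in the same cells. In BLM alveolar macrophages 28 of 29 measured other S genes and 40 of 41 other G2/M genes were 2-fold or more higher in cycle-positive cells than in the rest, beside 8.04% of all genes; in naive the counts were 26 of 28 and 48 of 48, beside 6.76%. In T cells they were 21 of 23 and 33 of 34 in BLM, beside 13.2%, and 21 of 22 and 26 of 28 in naive, beside 13.5%. Cycle-positive cells were read more deeply (median 18558.5 against 12261.5 UMIs in BLM alveolar macrophages), and 14 of 211 BLM and 7 of 149 naive ones were among the highest 3% of Scrublet doublet scores.

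Regulators differed in whether they were higher in cycle-positive cells. E2f1, a transcription factor of S phase, stood at 138 against 4.82 CPM in cycle-positive against other BLM T cells and at 88.4 against 8.84 CPM in naive. Foxm1, which drives the mitotic genes, stood at 25.1 against 0.644 CPM in BLM and 37.5 against 1.16 CPM in naive alveolar macrophages, and Cdk4, the cyclin D kinase, at 181 against 55.4 CPM in BLM T cells. Cdkn1b, the inhibitor p27 of quiescent cells, went the other way in T cells, at 149.7 against 529 CPM in BLM and 225 against 577 CPM in naive, whereas Cdkn2c, another inhibitor, was higher in cycle-positive T cells, at 51.8 against 4.82 CPM and 61.9 against 4.42 CPM. Of the p53 response genes 0 of 7 were higher in alveolar macrophages and 0 of 6 in T cells, in both libraries. Of all genes 8.04% in BLM and 6.76% in naive were higher in alveolar macrophages, and 13.2 and 13.5% in T cells. With so few p53 response genes, 0 is close to those shares. In BLM 1 of them was lower in cycle-positive cells in each class. Il2ra, the high-affinity interleukin 2 receptor chain of activated and regulatory T cells, stood at 495 against 189 CPM in BLM T cells and 75.2 against 86.7 CPM in naive.

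Between the libraries, a G1 cyclin of alveolar macrophages differed more than any member did in that class. Ccnd2, cyclin D2, stood at 40.3 CPM in BLM (287 UMIs) and 709 CPM in naive (4913 UMIs), a log2 ratio of -4.14 (-4.32 to -3.97). Cdk6, its kinase, stood at 48.8 CPM in BLM (348 UMIs) and 159 CPM in naive (1103 UMIs), a log2 ratio of -1.71 (-1.88 to -1.53). The growth factor receptor Csf1r (2526 and 862 UMIs, log2 1.51) was higher. So were Csf1 (30 and 13 UMIs, log2 1.17), E2f7 (29 and 13 UMIs, log2 1.12), Lin54 (292 and 130 UMIs, log2 1.13) and Orc1 (20 and 7 UMIs, log2 1.47). Il2rb (38 and 140 UMIs, log2 -1.92), Myc (60 and 134 UMIs, log2 -1.2003) and Il2 (20 and 41 UMIs, log2 -1.08) were lower. Csf1r is also a marker of monocyte-derived macrophages, and the markers of interstitial or recruited macrophages were at 2708 CPM in BLM and 557 CPM in naive among the alveolar macrophages that were not cycle-positive; their part in these ratios was not tested. Of 50 measured other G2/M genes 13 were lower and 0 higher, beside 10.2% of all genes lower and 5.91% higher. The 13 were Hjurp (103 and 415 UMIs, log2 -2.05), the chaperone of Cenpa, G2e3 (30 and 109 UMIs, log2 -1.902), Psrc1 (8 and 26 UMIs, log2 -1.74), Anln (74 and 237 UMIs, log2 -1.72), Nek2 (17 and 47 UMIs, log2 -1.51), Cdca2 (-1.33), Mxd3 (-1.25), Cit (-1.17), Sgo1 (-1.15), Fbxo5 (-1.15), Ndc80 (-1.13), Kif22 (-1.1) and Kif2c (-1.08).

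In interstitial or recruited macrophages 2 of the 3 D cyclins were lower in BLM, Ccnd2 (195 and 253 UMIs, log2 -2.95) and Ccnd1 (279 and 161 UMIs, log2 -1.78). The third, Ccnd3, had 496 and 88 UMIs and a log2 ratio of -0.082 (-0.41 to 0.26). Cyclin E1, Ccne1 (34 and 2 UMIs, log2 1.51, -0.45 to 4.61), lay above 2-fold with an interval that spans 0. Of 47 other G2/M genes 1 was lower, Hjurp, with 89 and 30 UMIs and a log2 ratio of -1.01 (-1.62 to -0.36). Another 17 were higher, beside 6.38% of all genes higher and 10.5% lower. Those with 4 or more naive UMIs were Tacc3 (156 and 6 UMIs, log2 2.12), a spindle pole protein, and Mad2l1, Nuf2, Cdca8, Spc25, Cks1b and Melk, with log2 ratios of 1.03 to 1.42. The intervals of Nuf2 (-0.10 to 3.25) and Melk (-0.16 to 2.52) span 0. Of those with 1 to 3 naive UMIs, the kinetochore genes Spc24 (130 and 3 UMIs, log2 2.86, 1.28 to 5.16) and Knl1 (53 and 2 UMIs, log2 2.15, 0.23 to 5.23) had intervals above 0. So did Cdca3 (74 and 2 UMIs, log2 2.63, 0.73 to 5.71) and Fbxo5 (51 and 2 UMIs, log2 2.096, 0.17 to 5.18). The intervals of Cenpm (33 and 1 UMIs, log2 2.47, -0.11 to 7.81), Kif22 (29 and 1 UMIs, log2 2.28, -0.31 to 7.63) and Nek2 (37 and 2 UMIs, log2 1.63, -0.32 to 4.73) span 0. So do those of Kif2c (50 and 3 UMIs, log2 1.48, -0.15 to 3.81) and Ckap2 (32 and 2 UMIs, log2 1.42, -0.55 to 4.53). Cdkn3, a phosphatase that acts on Cdk1, had 60 and 0 UMIs, at least 3.35-fold higher. Of 27 other S genes 3 were higher, beside 6.38% of all genes. Among the 3 were Fen1 (180 and 14 UMIs, log2 1.11), which trims Okazaki fragments, and Dtl (40 and 3 UMIs, log2 1.16, -0.49 to 3.498).

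Other regulators of this class went both ways. E2f2 (231 and 12 UMIs, log2 1.69), an activating E2F, Lin54 (324 and 23 UMIs, log2 1.24), the DNA-binding subunit of MuvB that recognises the CHR, and Csf1 (116 and 9 UMIs, log2 1.11), the macrophage growth factor, were higher. So were Sesn2 (68 and 3 UMIs, log2 1.93, 0.32 to 4.24), the histone genes Hist1h1c (1.07) and H2afx (1.14), and Hist1h2ae (34 and 1 UMIs, log2 2.51, -0.065 to 7.86). Cdkn1c (13 and 14 UMIs, log2 -2.68), the inhibitor p57, was lower, and so were Maf (1253 and 510 UMIs, log2 -1.28), which restrains macrophage self-renewal, Bcl6 (-1.53), Il2rb (-1.63) and Il2 (-1.58). Phlda3 (-1.08, -2.11 to 0.059) was lower with an interval that spans 0.

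In T cells Il2ra (565 and 174 UMIs, log2 1.45, 1.201 to 1.702) had the largest ratio among the regulators. Kif15 (76 and 29 UMIs, log2 1.14), a spindle kinesin, and the histone genes Hist1h2ae (1.31) and Hist1h3c (1.33) were also higher, and G2e3 (-1.32) was lower. Melk (1.07, -0.037 to 2.29) was higher with an interval that spans 0. Of 47 other G2/M genes 3 were higher and 1 lower, beside 2.75% of all genes higher and 3.82% lower. In NK cells Ccnd2 was lower, with 161 and 704 UMIs and a log2 ratio of -1.097 (-1.35 to -0.85). Also lower were E2f4, an E2F of resting cells (-1.22), and Tuba1b (-1.04). Prim1, the primase (4 and 20 UMIs, log2 -1.29, -3.30 to 0.29), was lower with an interval that spans 0. Kif20b (2 and 19 UMIs, log2 -2.22, -5.36 to -0.16) was lower, and Pold3 (3 and 20 UMIs, log2 -1.71, -4.099 to 0.048) had an interval that spans 0.

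In B cells the inhibitor Cdkn2d (96 and 66 UMIs, log2 1.11) and cyclin E1, Ccne1 (14 and 7 UMIs, log2 1.57), were higher. Of 29 other G2/M genes 6 were lower and 0 higher, beside 5.12% of all genes lower and 1.25% higher. Among the 6 were Asf1b (4 and 27 UMIs, log2 -2.19), a histone chaperone, Esco2 (3 and 17 UMIs, log2 -1.94, -4.35 to -0.15), and Dlgap5, Prc1 and Spc24, with log2 ratios of -1.43 to -1.02. The interval of Dlgap5 (-3.20 to 0.023) spans 0. Sesn2 (-1.48) was lower too. E2f8 (-1.11, -2.92 to 0.40) and Cdkn2c (-1.21, -2.67 to 0.046) were lower with intervals that span 0.

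In dendritic cells 2 of the 3 D cyclins were lower in BLM, Ccnd1 (452 and 871 UMIs, log2 -1.05) and Ccnd2 (464 and 928 UMIs, log2 -1.11). Ccnd3 had 383 and 245 UMIs and a log2 ratio of 0.54 (0.30 to 0.78). Of 43 other G2/M genes 6 were lower and 0 higher, beside 6.38% of all genes lower and 5.89% higher. The 6 were Cks2 (83 and 197 UMIs, log2 -1.35), a Cdk1 subunit, Ckap2l (51 and 112 UMIs, log2 -1.24), Nek2 (7 and 29 UMIs, log2 -2.16), and Kif20b, Kif22 and Cdkn3, with log2 ratios of -1.11, -1.11 and -1.11. Il2ra (160 and 52 UMIs, log2 1.52), Sesn2 (97 and 33 UMIs, log2 1.45), a stress gene of the p53 response, Hist1h1c (375 and 172 UMIs, log2 1.02), Cdkn2a (1.89) and Cdca7 (1.66) were higher. Mybl2, which encodes B-MYB (1.06, -0.21 to 2.47), was higher with an interval that spans 0. Ccnd2 was thus 2-fold or more lower in alveolar macrophages, interstitial or recruited macrophages, NK cells and dendritic cells, and stood at -0.14 in T cells and 0.30 in B cells.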

How the data were processed

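Each library had 1 deposited table, with a row per cell and a column per gene, of UMI counts that were not normalised. Per the file headers the counts came from the BD Rhapsody WTA pipeline version 1.8 (GRCm38 with GENCODE vM19), after error correction of UMIs; the aligner is not given in the sources used here. A gene absent from a table was set to 0. Cells needed 200 genes and were dropped above 15% mitochondrial UMIs. Libraries were integrated in Seurat 5.3.0 (R 4.3.3) by canonical correlation with 2000 variable genes other than cycle genes, 30 dimensions and resolution 1. Clusters were named by fixed markers; cells of a cluster with 3 or more cycle genes among its 10 leading genes took the class of their own markers. Doublets were not removed; leaving out the highest 3% of Scrublet scores (scanpy 1.11.5) was an alternative. Rebuilt names may differ from the study's.

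UMIs were summed per class and library and divided by the class total (CPM). Ratios have exact conditional intervals, and shares have exact Clopper-Pearson intervals with a log-normal interval for their ratio, at 95%. UMIs of a cell are not independent, so all intervals cover counting error only. Cells fall in G2/M or S by the number of distinct members seen, with 3 genes as planned and 8 as added after seeing the data. With 1 library per group no test was made. Ratios of 2-fold or more at 20 or more UMIs are described beside the share of all genes that pass. The fold rule was also run on simulated class totals with counts drawn independently. That simulation lacks the clumping of UMIs in few cells, so it does not show how the rule performs on the members. Mki67, Top2a, Cdk1, Ccnb1, Pcna, Mcm5, Rrm2, Tyms and Stmn1 are named in each class with the 3 highest and 3 lowest members, and genes of the other lists where 2-fold or more. The members and lists were chosen with earlier results of these data known. Promoters are from RefSeq (GRCm38.p6); 8 members had no entry. Some genes of the lists are counted but not reported here by name.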

Additional observations from a re-analysis of the deposited data

Results flagged for a closer look

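Ratios of the summed members differed in direction between classes, which was not tested because each group had 1 library. The log2 ratio of BLM over naive for the S members was 0.10 in alveolar macrophages, 0.62 in interstitial or recruited macrophages and 0.42 in dendritic cells, but -0.57 in NK cells. For the G2/M members it was 0.99 in interstitial or recruited macrophages and 0.22 in T cells, but -0.37 in alveolar macrophages, -0.43 in B cells and -0.47 in dendritic cells. These directions hold for the classes used here. In alveolar macrophages both groups summed together went from -0.11 to 0.43 with the cycle cluster placed by nearest cells. In ILC2, a class outside the 6 compared, the S and G2/M members together had a log2 ratio of 2.74, in 43 BLM and 120 naive cells.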

How the results depend on the processing

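No paired analysis was possible because each group had 1 library, and no replicate could be left out. Among the 6 classes compared, the smallest cycle-positive counts were those of naive interstitial or recruited macrophages (4 of 137 cells) and of NK cells (2 BLM and 6 naive). These counts limit precision. The direction of the T cell share with 8 genes was positive under all 6 alternatives for classes, filters and doublets (0.69 to 0.85), as was that of interstitial or recruited macrophages (1.02 to 1.86) and of both macrophage classes as 1 (0.17 to 0.49). The T cell and interstitial or recruited macrophage intervals, above 0 with the classes used here, spanned 0 by marker score for T cells, and by marker score, by nearest cells and without integration for interstitial or recruited macrophages. For B cells leaving out the highest Scrublet scores gave no value, since a library had 0 cells called. Of 568 alternatives for the named members 488 moved by less than counting error and 71 moved by more. The other 9 were changes of sign of ratios of 2-fold or more. Sign changes of smaller ratios were not counted apart and lie among the 488 or the 71. The cause of the moves below was not tested, except where the number of genes or cells is itself the change.

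With the call of 3 genes as the starting point, the log2 ratio of the share in alveolar macrophages (0.18) was -0.0042 with 6 genes, -0.044 with 8 genes, -0.048 with other S and G2/M genes, -0.074 with scanpy phase scores, -0.13 after thinning to 1000 UMIs with 2 genes and 1.22 without integration. In interstitial or recruited macrophages (0.68) it was 1.20 with 4 genes, 1.49 with 6, 1.86 with 8, 1.67 with 10, 1.38 after thinning and 0.070 with scanpy phase scores. In T cells (-0.059) it was 0.60 with 4 genes, 0.85 with 6, 0.79 with 8, 0.80 with 10 and 0.38 after thinning. In B cells (-0.18) it was 0.35 with at most 10% mitochondrial UMIs. In dendritic cells it was -0.42 with 8 genes, -0.44 with 10 and -0.45 after thinning, from near 0. With 8 genes, alveolar macrophages (-0.044) stood at 0.70 with classes by the marker score of each cell, 0.54 with the cycle cluster placed by the 15 nearest cells and 3.33 without integration, which left 32 BLM cells in the class.

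The log2 ratio of the summed members in alveolar macrophages (-0.11) was 0.50 by marker score, 0.43 by nearest cells, 2.74 without integration, -0.060 without the highest Scrublet scores and -0.048 with totals that leave out the 50 most abundant genes. In interstitial or recruited macrophages (0.80) it was 0.31, 0.25 and 0.16 under the first 3 of these, and in macrophages as 1 class (0.14) it was 0.26, 0.26, 0.29, 0.10 and 0.19. In B cells (-0.27) it was -0.071 by marker score, 0.019 without the highest Scrublet scores and -0.012 without integration, and in dendritic cells (-0.054) -0.24 by marker score and -0.58 by nearest cells. Among named members with a ratio of 2-fold or more, signs turned for Cenpf (1.12), Kif23 (0.86) and Kif20a (2.05) in alveolar macrophages without integration. In B cells they turned for Ccnb1 (0.15) and Cdc20 (0.57) without integration. Without the highest Scrublet scores they turned for Ccnb1 (2.17), Cdc20 (0.59) and Cdk1 (0.0013) in B cells. In dendritic cells the sign turned for Ccne2 (-0.0086) by nearest cells.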
